A study of Mus musculus with 18 samples.

Results

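The ATP-binding cassette (ABC) genes encode membrane pumps that use ATP to move lipids, bile components, drugs, conjugates and ions across membranes, together with a few soluble relatives. Members were the genes of the count table with a symbol made of Abc, a subfamily letter from a to g and a number. Symbols with the pseudogene suffix -ps were to be left out, and the table held none. The rule found 50 of the 55335 genes in the table, with 16 in subfamily A, 10 in B, 10 in C, 4 in D, 1 in E, 3 in F and 6 in G. ABC genes that carry other symbols (Cftr, Tap1 and Tap2) fall outside the rule and are described separately.

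In the small intestine, ABC pumps of the apical membrane return drugs, glucuronide and glutathione conjugates and plant sterols to the lumen, while pumps of the basolateral membrane pass conjugates, bile acids and cholesterol towards the blood. Members of subfamily D sit in peroxisomes and lysosomes, several members of subfamily B sit in mitochondria or lysosomes, and members of subfamilies E and F have no membrane part and act in translation. Subfamily C also holds the sulfonylurea receptors, which are regulatory subunits of ATP-sensitive potassium channels and not pumps.

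The data are RNA-seq counts from small intestinal crypts of a series that asks how loss of Prmt1, a protein arginine methyltransferase, alters the adult intestinal epithelium. KO mice carried Prmt1 alleles with LoxP sites together with CreERT2, a Cre recombinase that becomes active with tamoxifen, driven by the villin promoter. WT mice were littermates that carried the LoxP alleles but no Cre, and they received the same tamoxifen, so an effect of Cre itself cannot be told apart from loss of Prmt1. Crypts were taken on day 2, 7 or 14 from the first dose, from 3 mice per genotype and day, which gave 18 libraries in 6 groups. Each dose was 2 mg tamoxifen, given 2 times before day 2 and 5 times before days 7 and 14, to animals 8 to 12 weeks old. The villin promoter acts in epithelial cells, so Prmt1 of other cells in the crypt preparations is not deleted.

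Library totals ran from 12844642 (WT day 14 replicate 1) to 31493484 counts (WT day 2 replicate 3). The members together took 0.172% of the counts in WT day 14 replicate 1, the lowest share, and 0.382% in KO day 7 replicate 1, the highest. Levels are given per library as CPM, counts scaled to the size of the library with TMM factors, and between genes as RPKM, the same value per kilobase of exon. In every group Olfm4 was the most abundant stem cell marker and Lyz1 the most abundant Paneth cell marker, while smooth muscle and pericyte markers summed to at most 14.6 CPM in any library. Of the 50 members, 38 had enough counts to be tested. A gene was called when the quasi-likelihood test of edgeR, adjusted by Benjamini-Hochberg over 21349 genes, gave a p under 0.05, and errors of log2 fold changes are SE of that model with 3 libraries in each group. A test of 3 libraries against 3 by exact permutation cannot give a p under 0.1 when both directions count, so calls come from the model alone.

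Prmt1 (ENSMUSG00000109324.2, chromosome 7, mm10) was measured first, as the gene deleted in KO. At day 2 it had 15.8, 13.1 and 14.3 CPM in the KO libraries and 27.1, 26.5 and 26.1 CPM in the WT libraries. Day 7 gave 13.6, 17.4 and 16.4 CPM in KO against 22.3, 25.9 and 23.1 CPM in WT. Day 14 gave 16.1, 15 and 15.1 CPM in KO against 25.2, 30.6 and 20.2 CPM in WT. All 9 KO libraries lay below the WT libraries of their day, and 54.1% to 66.4% of the WT mean remained. The log2 fold changes were -0.89 ± 0.14, -0.59 ± 0.14 and -0.72 ± 0.14 on days 2, 7 and 14 (edgeR adjusted p = 0.0264, 0.00675 and 0.00329). The day 2 call was lost with any 1 of its 6 libraries left out (edgeR adjusted p = 0.0816, 0.183 and 0.114 without KO day 2 replicate 1, 2 and 3, and 0.167, 0.148 and 0.13 without WT day 2 replicate 1, 2 and 3). It was also lost with only the day 2 libraries in the model (0.0939, the highest of a range from 8.66e-05). Without KO day 7 replicate 1, the day 7 adjusted p of edgeR was 0.0655.

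Levels in WT crypts differed widely between members. Abcb1a, the drug efflux pump P-glycoprotein of the apical membrane, had the highest mean, 70.7 ± 39.8 RPKM (SD over the 9 WT libraries), with a range of 31.2 to 145 RPKM. Abcg5, a partner in the sterol efflux dimer, followed with 51.9 ± 9.7 RPKM, then Abcc2, the apical pump for conjugates, with 47.8 ± 18.5 RPKM, and Abcd3, a peroxisomal fatty acid transporter, with 42.2 ± 15.6 RPKM. By day, Abcb1a had a mean of 109.6, 70.5 and 31.9 RPKM in WT on days 2, 7 and 14, and at day 14 it lay below Abcg5 (47.5 RPKM), Abcg8 (33.6 RPKM) and Abcd3 (32.5 RPKM). The ranges of mean ± SD of these 4 genes over the 9 libraries met, so their order by RPKM is not firm. Abcg8, the other partner of the sterol dimer, had 34.1 ± 7.91 RPKM and Abcc3, the basolateral conjugate pump, 25.5 ± 6.79 RPKM.

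**Figure D1:**
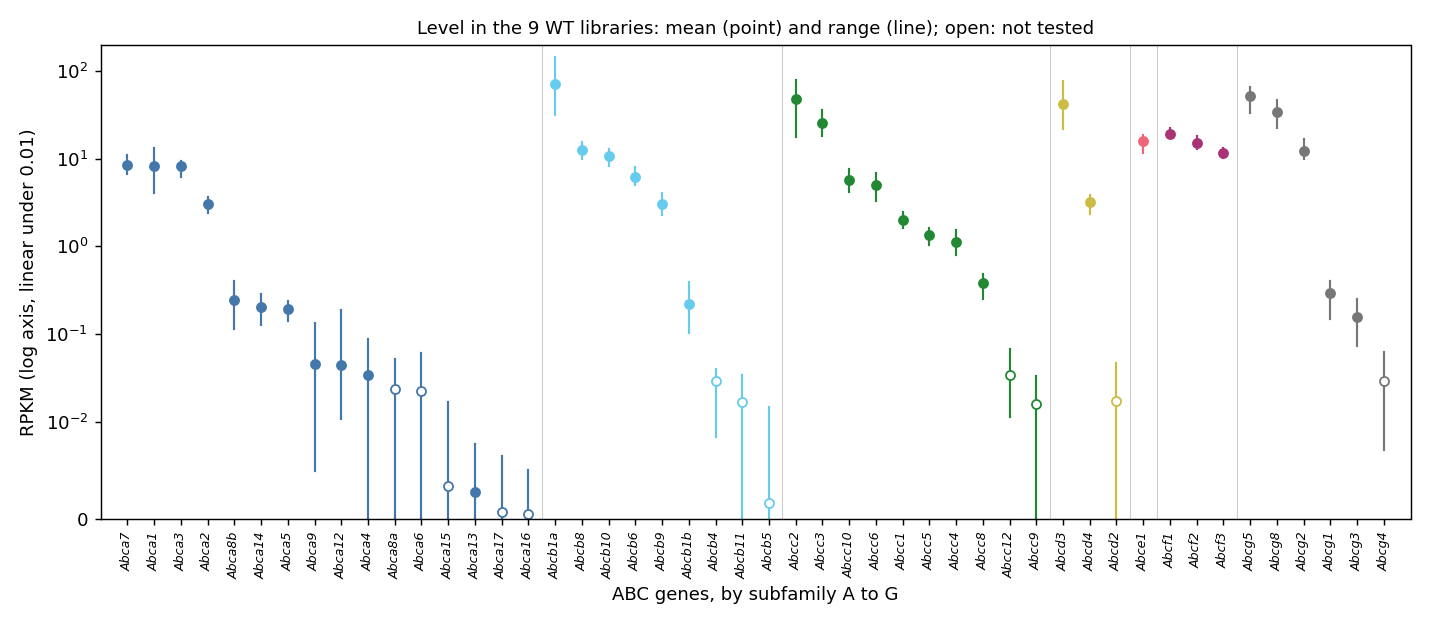
Mean RPKM (points, log axis, linear under 0.01) and range (lines) of ABC genes in the 9 WT libraries, ordered by mean within subfamilies A to G, with open points for genes that were not tested. Abcb1a was highest at a mean of 70.7 RPKM, and the untested genes had means of 0.0337 RPKM or less.

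Each subfamily except E and F mixed abundant with scarce genes. In subfamily A, Abca7, Abca1 and Abca3 led with 8.52 ± 1.44, 8.33 ± 3.08 and 8.21 ± 1.06 RPKM in WT, values within 1 SD of each other, while Abca5 had 0.191 ± 0.0397 RPKM. In subfamily B, Abcb8 (12.7 ± 1.85 RPKM) and Abcb10 (10.8 ± 1.52 RPKM), which are mitochondrial, stood close together below Abcb1a. Abce1 had 15.9 ± 2.66 RPKM, and Abcf1, Abcf2 and Abcf3 had 19.1 ± 1.71, 14.9 ± 1.76 and 11.5 ± 0.824 RPKM. In subfamily G, Abcg2, an apical pump for urate and drugs, had 12.1 ± 2.27 RPKM, and Abcg1 and Abcg3 had 0.294 ± 0.0739 and 0.157 ± 0.0724 RPKM.

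At day 2 the test of edgeR called 0 of 38 members, beside 0.0328% of all tested genes, and DESeq2 also called 0. At an unadjusted p under 0.05 there were 2 of 38, beside 710 of 21349 genes, Abca8b (a relative of lipid transporters, log2 0.85 ± 0.30) and Abcc4 (log2 0.46 ± 0.21), which were chosen here for their p. KO and WT libraries did not overlap for 3 members, where 8.16% of all genes had such separation. The 38 log2 fold changes had a median of -0.04, beside -0.00 for all genes.

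At day 7, 11 members were higher in KO (7.11% of all tested genes were) and 5 were lower (10.2% of all genes). The higher members were Abca13 (tested through its KO libraries alone), Abca14, Abcc1, Abcc2, Abcc3, Abcc4, Abcc5, Abcc8, Abcf1, Abcf3 and Abcg1, and the lower ones Abca2, Abca3, Abcb9, Abcc6 and Abcc10. Abca13 passed the filter on low counts only where it is high, in KO, so it adds no support to these counts. With a mean count of at least 50, where Abca13 was not tested, all the other calls of day 7 were kept. The median log2 fold change of the 38 tested members was 0.34, beside 0.02 over all tested genes, and 27 of the 38 were positive. KO and WT libraries did not overlap for 19 members, 13 of them with KO above, where 33.6% of all genes had such separation. Leaving out WT day 7 replicate 1 lowered the 16 calls to 10, the fewest of any fit at day 7. The 11 higher members were 6 without KO day 7 replicate 1, WT day 7 replicate 1 or WT day 7 replicate 2.

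Counted by subfamily at day 7, C had all 8 tested members called, 6 higher and 2 lower, and without KO day 7 replicate 1 it had 3 higher and 2 lower. Subfamily A had 2 higher and 2 lower of 11, B had 0 higher and 1 lower of 7, F had 2 higher of 3 and G had 1 higher of 5, while D had 0 of 3 and E 0 of 1. The 2 higher of A were 1 without KO day 7 replicate 3 or WT day 7 replicate 1, the 1 lower of B was 0 without WT day 7 replicate 1, and the 1 higher of G was 0 without WT day 7 replicate 2. The 2 higher of F were 0 without KO day 7 replicate 1 or 2 or WT day 7 replicate 1 or 2, and 1 without WT day 7 replicate 3. In D and E, 0 members had an unadjusted p under 0.05, and DESeq2 called the same 16 members as edgeR at day 7, 0 of them in D or E. The median log2 fold change was 0.61 in A, 0.00 in B, 0.62 in C, 0.35 in E, 0.40 in F and 0.22 in G, and it was below 0 in D alone, where 0 of 3 log2 values were positive. Abca12, Abca13 and other scarce genes enter these medians with wide errors. Abca13, tested through its KO libraries alone, is also 1 of the 2 higher of A.

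At day 14, 4 members were higher in KO (3.23% of all tested genes), Abca14, Abcc2, Abcc5 and Abcc8, and 1 was lower (4.69% of all genes), Abcc10. These 5 made up 5 of the 5 calls of day 14 and 5 of the 16 calls of day 7. The median log2 fold change was 0.11, beside 0.00 over all genes, and it was 0.44 in C, 0.19 in F, 0.11 in A and 0.01 in B, and below 0 in D, E and G. KO and WT libraries did not overlap for 12 members, 10 of them with KO above, where 26.5% of all genes had such separation. The 11 members called at day 7 alone had the same sign at day 14 and a log2 fold change smaller in size. Their selection, called at day 7 and not at day 14, itself favours smaller values at day 14.

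Tested for a change in the KO effect between day 2 and day 7, 2 members were called upward (1.33% of all tested genes), Abca14 and Abcc2, and 2 downward (3.04% of all genes), Abcc6 and Abcc10. The test of the difference between days 14 and 7 by edgeR called 0 of 38 members and 0.0% of all genes, with 3 of 38 members, beside 953 of 21349 genes, at an unadjusted p under 0.05 and 0 calls by DESeq2. A smaller effect at day 14 was therefore not shown for any member. Both differences use day 7 libraries.

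**Figure D2:**
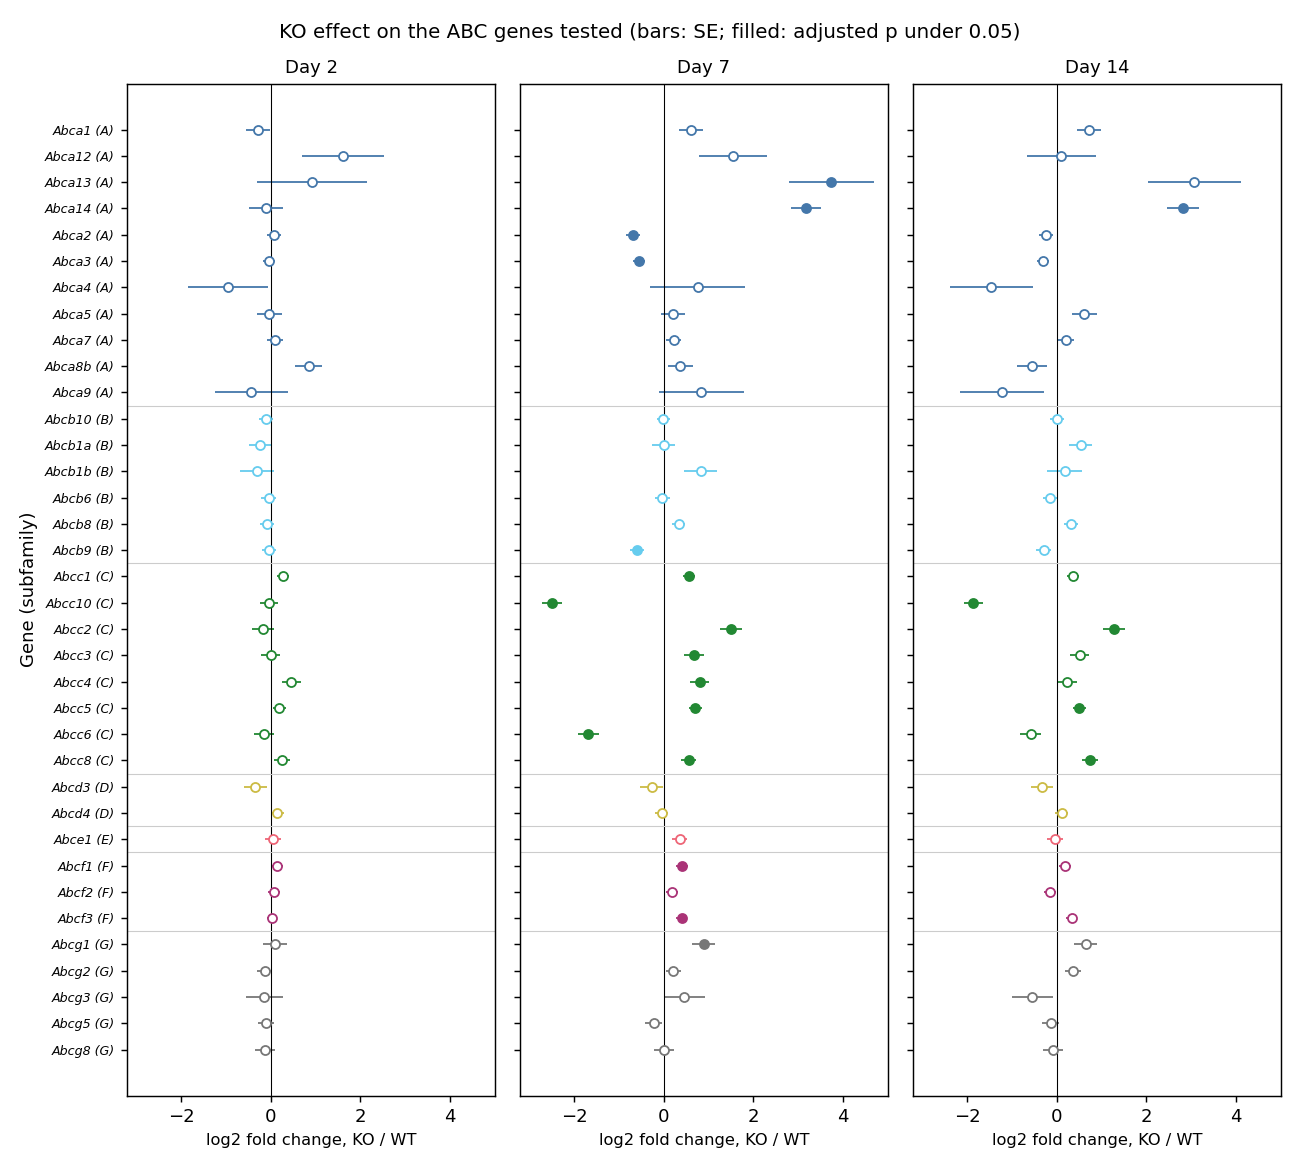
Log2 fold change of KO against WT (x axis) with SE bars for ABC genes tested on days 2, 7 and 14, grouped by subfamily on the y axis, with filled points for an adjusted p under 0.05. No point is filled at day 2, 16 are filled at day 7 and 5 at day 14.

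Among the pumps of the apical membrane, Abcc2 (ENSMUSG00000025194.5, chr19:43782192-43840740, plus strand), which sends glucuronide and glutathione conjugates into the lumen, was the only one called for KO against WT. At day 2 it had 502, 494 and 524 CPM in KO and 588, 455 and 671 CPM in WT. Day 7 libraries held 1496, 1027 and 899 CPM in KO and 457, 364 and 385 CPM in WT. Day 14 libraries held 568, 747 and 512 CPM in KO and 150.4, 282 and 322 CPM in WT. The groups overlapped at day 2, and every KO library was above every WT library on days 7 and 14, with KO day 7 replicate 1 highest of all. The log2 fold change was 1.51 ± 0.25 at day 7 and 1.28 ± 0.25 at day 14 (edgeR adjusted p = 0.000407 and 0.00298), against -0.17 ± 0.25 at day 2. The KO effect grew by 1.68 ± 0.35 from day 2 to day 7 on the log2 scale (edgeR adjusted p = 0.00967). Without KO day 7 replicate 1 the day 7 value was 1.28. In bulk crypts, fewer or more cells of a type and less or more RNA per cell cannot be told apart, for Abcc2 as for every gene here.

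Abcc2 also fell with time in WT crypts, with a log2 fold change of -1.18 ± 0.25 from day 2 to day 14 (edgeR adjusted p = 0.0275). Over the same days 0 of 10 enterocyte markers had a positive log2 value (median -1.27), and their part was not tested. Of the KO day 14 libraries of Abcc2, 2 lay within the range of the WT day 2 libraries and 1 above it, and all KO day 7 libraries lay above it. The WT call was lost without WT day 2 replicate 1, WT day 2 replicate 3 or WT day 14 replicate 1 (edgeR adjusted p = 0.132, 0.108 and 0.102) and with only the groups compared in the model (0.105, the highest of a range from 4.12e-06).

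The remaining apical pumps gave no call for KO against WT on any day. Abcb1a (ENSMUSG00000040584.8, chr5:8660077-8748575, plus strand) had 501, 363 and 296 CPM in KO and 296, 506 and 358 CPM in WT at day 7, overlapping ranges with a log2 fold change of 0.00 ± 0.26. At day 14 the KO libraries of Abcb1a had 226, 322 and 211 CPM and the WT libraries 173, 179 and 171 CPM. All 3 KO libraries were above the WT libraries there, and the log2 fold change of 0.54 ± 0.26 was not called (edgeR adjusted p = 0.239). Abcg2 had log2 values of 0.22 ± 0.17 and 0.36 ± 0.18 on days 7 and 14, and Abcb1b, the other P-glycoprotein gene of the mouse, 0.83 ± 0.38 and 0.18 ± 0.39, none of them called. Abcb4, the phospholipid flippase of bile, and Abcb11, the bile salt export pump of the liver, were too scarce to test.

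Abcb1a, like Abcc2, was lower in WT at day 14 than at day 2. Its WT libraries held 621, 386 and 796 CPM at day 2, 296, 506 and 358 CPM at day 7 and 173, 179 and 171 CPM at day 14. The 3 WT day 14 libraries were close together and below every WT library of days 2 and 7. From day 2 to day 14 Abcb1a fell, with a log2 fold change of -1.78 ± 0.27 (edgeR adjusted p = 0.00338), and the day 7 value against day 2 was -0.64 ± 0.26 (edgeR adjusted p = 0.162). The day 14 call held without each of its 6 libraries in turn. Of the 10 enterocyte markers, 0 had a positive log2 value between these days (median -1.27), and their part in the fall was not tested.

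Abcc2 took a larger part of the summed CPM of the members in KO than in WT on days 7 and 14. The members summed to 4071, 3147 and 2829 CPM in the KO day 7 libraries and 2422, 2575 and 2462 CPM in the WT day 7 libraries, with no overlap between the groups. Abcc2 made up 33.7% ± 2.65 (SD, n = 3) of that sum in KO and 16.2% ± 2.42 in WT at day 7, and 24.1% ± 2.81 against 12.1% ± 2.71 at day 14. At day 2 its share was 17.9% ± 1.04 in KO and 18.3% ± 0.685 in WT. Subfamily C, with Abcc2 included, held 44.7% ± 2.02 of the summed CPM in KO and 28.2% ± 3.78 in WT at day 7. Abcc2 made up most of that share in both groups, so a gain of the other C members is not shown. Subfamily B held 19% ± 1.06 in KO and 25.1% ± 3.49 in WT at day 7, and subfamily D 7.96% ± 0.649 and 12.8% ± 0.671. The sum over all members includes Abcc2 too, and sums without it were not computed. At day 14 the share of subfamily C, again with Abcc2, was 35.2% ± 1.66 in KO and 24.2% ± 2.24 in WT. Shares of one sum move against each other, so a lower share is not a lower level.

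The list of other organic anion and nucleotide pumps had 4 higher and 2 lower of 6 tested at day 7, and 1 higher and 1 lower at day 14. The 4 higher at day 7 were 2 without KO day 7 replicate 1 or WT day 7 replicate 1. Abcc10 (ENSMUSG00000032842.13, chr17:46303221-46328352, minus strand), a broad drug and conjugate pump, moved most among them. At day 2 Abcc10 had 23.3, 38.2 and 23 CPM in KO and 28.3, 29.9 and 28.3 CPM in WT. Its level at day 7 was 7.25, 6.53 and 11.2 CPM in KO and 52.9, 38.5 and 48.7 CPM in WT. Its level at day 14 was 12, 9.21 and 11.9 CPM in KO and 38.5, 36.3 and 46 CPM in WT. The 6 KO libraries of days 7 and 14 were the lowest of all 18, and day 2 libraries of the 2 genotypes overlapped. Abcc10 fell in KO, with log2 fold changes of -2.50 ± 0.21 at day 7 and -1.87 ± 0.21 at day 14 (edgeR adjusted p = 3.1e-07 and 1.89e-05), and -0.04 ± 0.20 at day 2. The KO effect differed between days 7 and 2 by -2.46 ± 0.29 (edgeR adjusted p = 0.000105). Its WT libraries were higher at day 7 than at day 2, with a log2 value of 0.70 ± 0.20 that edgeR did not call (adjusted p = 0.0737), while DESeq2 did, as did edgeR with only the groups compared or no filter on low counts.

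Abcc6 (ENSMUSG00000030834.7, chr7:45967555-46030302, minus strand), a pump of liver and kidney that releases ATP and is known from a disorder of tissue calcification, fell at day 7. Its day 2 libraries held 18.5, 30.3 and 17.9 CPM in KO and 26.1, 24.7 and 23 CPM in WT. Its day 7 libraries held 9.38, 9.23 and 12.3 CPM in KO and 37.2, 35 and 27.4 CPM in WT. Its day 14 libraries held 16.9, 22.6 and 18.9 CPM in KO and 18.6, 29.4 and 38.9 CPM in WT. KO was below WT in every day 7 library, and the groups overlapped on days 2 and 14, with each KO day 14 library below the WT library of its number. The log2 fold change was -1.69 ± 0.24 at day 7 (edgeR adjusted p = 8.49e-05) and -0.58 ± 0.23 at day 14 (edgeR adjusted p = 0.139, not called), and the KO effect of day 7 minus that of day 2 was -1.54 ± 0.33 (edgeR adjusted p = 0.0109). The step from day 7 to day 14 was 1.11 ± 0.33 on the log2 scale, with an unadjusted p of 0.00314 in the same edgeR model and an adjusted p of 0.999. With no filter on low counts, or without WT day 14 replicate 1, edgeR called Abcc6 lower at day 14 as well.

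Abcc5 (ENSMUSG00000022822.16, chr16:20331303-20426394, minus strand), a pump of cyclic nucleotides and glutamate conjugates, was higher in KO on both later days. At day 2 it had means of 14.9 CPM in KO and 13 CPM in WT (log2 0.19 ± 0.15, not called). At day 7 it had 30.2, 25 and 26.9 CPM in KO and 17.3, 17.1 and 16 CPM in WT. At day 14 it had 16.4, 21.8 and 19.8 CPM in KO and 13.4, 11.1 and 16.3 CPM in WT. All KO libraries were above all WT libraries on both days, although KO day 14 replicate 1 and WT day 14 replicate 3 nearly met. The log2 fold change was 0.71 ± 0.15 at day 7 and 0.51 ± 0.15 at day 14 (edgeR adjusted p = 0.00258 and 0.0419). The KO effect of day 7 minus that of day 2 was 0.51 ± 0.21, not called (edgeR adjusted p = 0.193). The day 14 call of Abcc5 was lost without KO day 14 replicate 2 (edgeR adjusted p = 0.149), KO day 14 replicate 3 (0.106), WT day 14 replicate 1 (0.092) or WT day 14 replicate 2 (0.179), and with no filter on low counts, only the groups compared or the replicate number as a block (0.0695, 0.117 and 0.061, in a range from 0.0174).

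Abcc1, Abcc3 and Abcc4 were higher in KO at day 7. At day 2 their log2 values were 0.27 ± 0.14, -0.00 ± 0.22 and 0.46 ± 0.21, none called. The KO effects of day 7 minus those of day 2 were not called either (edgeR adjusted p = 0.473, 0.246 and 0.602). Abcc1 (ENSMUSG00000023088.17, chr16:14361558-14475737, plus strand), a basolateral pump of glutathione conjugates and leukotrienes, had 47.1, 45.5 and 53.5 CPM in KO against 32.5, 29.6 and 37.1 CPM in WT libraries, with a log2 fold change of 0.56 ± 0.14 (edgeR adjusted p = 0.00798). Abcc3 (ENSMUSG00000020865.16, chr11:94343295-94392997, minus strand), a basolateral pump of glucuronides and bile acids, had 298, 224 and 227 CPM in KO against 142, 120.3 and 207 CPM in WT libraries, with a log2 fold change of 0.68 ± 0.22 (edgeR adjusted p = 0.0375). Abcc4 (ENSMUSG00000032849.14, chr14:118482692-118706219, minus strand), a pump of cyclic nucleotides, bile acids and prostaglandins, had 17.6, 11.1 and 14.8 CPM in KO against 6.84, 8.24 and 9.81 CPM in WT libraries, with a log2 fold change of 0.80 ± 0.21 (edgeR adjusted p = 0.0113). KO and WT libraries did not overlap for any of these 3, with WT day 7 replicate 3 the highest WT library of each. At day 14 the log2 values were 0.37 ± 0.14, 0.52 ± 0.22 and 0.23 ± 0.22, none called. For each of these 3 genes, every KO day 14 library was above the WT library of its number.

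Abcc1 kept its call without each library. Abcc3 lost it without KO day 7 replicate 1 (edgeR adjusted p = 0.148), KO day 7 replicate 2 (0.0507), WT day 7 replicate 1 (0.13) or WT day 7 replicate 2 (0.168), and with only the groups compared (0.0543, where the other settings went down to 0.00353). Abcc4 lost it without KO day 7 replicate 1 (edgeR adjusted p = 0.0635) or WT day 7 replicate 1 (0.0673). Abcc12, the last of this list, had at most 9 counts in a library and was not tested.

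**Figure D3:**
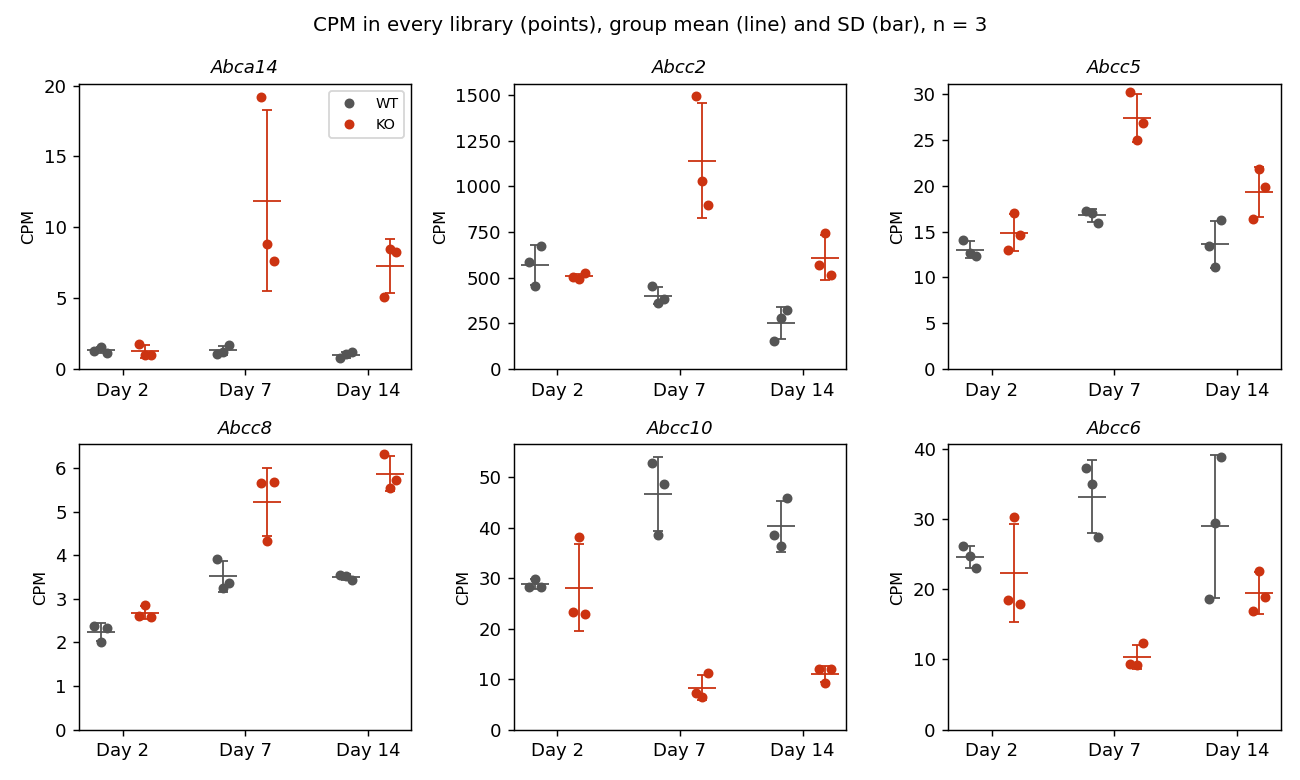
CPM (y axis, from 0) of Abca14, Abcc2, Abcc5, Abcc8, Abcc10 and Abcc6 in each library (points) with group mean (line) and SD (bar), 3 KO and 3 WT libraries on each of days 2, 7 and 14. KO day 7 points lie apart from WT day 7 points in all 6 panels, above for Abca14, Abcc2, Abcc5 and Abcc8 and below for Abcc10 and Abcc6.

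Abcc8 (ENSMUSG00000040136.10, chr7:46104523-46180033, minus strand) encodes SUR1, the subunit that makes ATP-sensitive potassium channels of beta cells and some enteroendocrine cells respond to sulfonylureas. At day 2 it had 2.6, 2.85 and 2.59 CPM in KO and 2.38, 2 and 2.34 CPM in WT. Day 7 values of Abcc8 were 5.65, 4.32 and 5.68 CPM in KO and 3.92, 3.26 and 3.37 CPM in WT. Day 14 values of Abcc8 were 6.32, 5.55 and 5.73 CPM in KO and 3.55, 3.51 and 3.43 CPM in WT. KO libraries were above the WT libraries of their day on all 3 days, narrowly at day 2. The log2 fold change was 0.26 ± 0.18, 0.56 ± 0.17 and 0.75 ± 0.17 on days 2, 7 and 14 (edgeR adjusted p = 0.999, 0.029 and 0.0105), so the later days were called. The day 7 call was lost without KO day 7 replicate 1 (edgeR adjusted p = 0.101), KO day 7 replicate 3 (0.067), WT day 7 replicate 2 (0.0922) or WT day 7 replicate 3 (0.0894), and with no filter on low counts or only the groups compared (0.185 and 0.106, in a range from 0.0245). At day 14 it was lost with no filter on low counts (edgeR adjusted p = 0.0713, in a range from 0.00282).

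Kcnj11, the pore subunit that pairs with SUR1, lies 3758 bases from Abcc8 on chromosome 7 and on the same strand. It had 1.37, 0.883 and 1.08 CPM in KO and 0.227, 0.237 and 0.51 CPM in WT at day 14, all KO above all WT. Its log2 fold change of 1.74 ± 0.46 was called (edgeR adjusted p = 0.0231), and the day 7 value of 0.79 ± 0.41 was not (edgeR adjusted p = 0.205). The day 14 call of Kcnj11 was lost without KO day 14 replicate 1 (edgeR adjusted p = 0.0953), KO day 14 replicate 3 (0.0516), WT day 14 replicate 1 (0.068) or WT day 14 replicate 2 (0.104). Abcc9, the other sulfonylurea receptor, and Kcnj8, its pore partner, were too scarce to test. Of 6 tested genes of potassium channels and glucose sensing, 0 were called at day 7 and 2 at day 14, Kcnj11 among them.

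Beside Abcc8 and Kcnj11 stand the markers of enteroendocrine cells, the hormone cells of the gut. All 12 of 12 enteroendocrine markers were called higher in KO on days 7 and 14. They summed to 834, 718 and 670.2 CPM in KO and 321, 297 and 299 CPM in WT at day 7, and to 914, 947 and 794 and 257, 337 and 288 CPM at day 14, with Chgb most abundant and no marker at 0. The study names all 12 as higher in KO at day 14 in these same libraries, so the count adds no independent support. The part of these markers in the values of Abcc8 and Kcnj11 was not tested.

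Subfamily A held 2 of the 11 higher and 2 of the 5 lower members of day 7. Abca14 (ENSMUSG00000062017.15, chr7:120203961-120325352, plus strand), known mainly from testis and of unknown substrate, had 1.73, 0.97 and 0.992 CPM in KO and 1.23, 1.56 and 1.15 CPM in WT at day 2. At day 7 the KO libraries of Abca14 held 19.2, 8.84 and 7.6 CPM and the WT libraries 1.04, 1.21 and 1.66 CPM. At day 14 the KO libraries of Abca14 held 5.06, 8.45 and 8.23 CPM and the WT libraries 0.755, 1.03 and 1.2 CPM. Day 2 groups overlapped, all later KO libraries were above every WT library, and KO day 7 replicate 1 stood above the rest. The log2 fold change was 3.18 ± 0.35 at day 7 and 2.82 ± 0.36 at day 14 (edgeR adjusted p = 5.32e-06 and 6.44e-05), with -0.11 ± 0.38 at day 2. The KO effect of day 7 exceeded that of day 2 by 3.29 ± 0.51 (edgeR adjusted p = 0.00105). Leaving out KO day 7 replicate 1 gave a log2 value of 2.67 at day 7 (edgeR adjusted p = 1.57e-05).

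The neighbours of Abca14 did not give such counts. Abca15 starts 3317 bases beyond Abca14 on the same strand of chromosome 7, and Abca16 follows 1959 bases further on. Abca15 had 16 counts and Abca16 had 1 count over all 18 libraries, too few to test, against 1520 counts of Abca14. Aligned transcripts of Abca14 and Abca15 were 73.6% identical with no identical run longer than 35 bases, well under the 100-base reads.

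Abca13 (ENSMUSG00000004668.14, chr11:9191942-9684259, plus strand), a very large lipid transporter, was scarce. It reached the filter on low counts through KO libraries alone (day 7 replicates 1 and 3 and day 14 replicate 1), so its place among the tested members, and with it the call below, depends on its being high in KO. Its counts at day 7 were 13, 3 and 32 in the KO libraries and 1, 0 and 2 in the WT libraries. Every KO library was above every WT library, and KO day 7 replicate 3 held most of the counts. The pooled 48 counts in KO and 3 in WT gave a ratio of 14.4 at equal depth, with a 95% interval of 4.63 to 72.0 that covers counting error only. Its log2 fold change of 3.75 ± 0.95 was called (edgeR adjusted p = 0.00995), but without KO day 7 replicate 3 it was 2.73 (edgeR adjusted p = 0.0609), and leaving out WT day 7 replicate 1 gave an edgeR adjusted p of 0.0513. Without WT day 7 replicate 3 the log2 value was 4.58 (edgeR adjusted p = 0.0234). At day 14 the ratio was 9.69 (24 counts in KO and 3 in WT, 95% interval 2.94 to 50.3), where edgeR called Abca13 only with no filter on low counts, and at day 2 it was 1.99 (6 and 4 counts, 0.471 to 9.57).

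Abca2 and Abca3, lipid transporters of lysosomes and of lamellar bodies in the lung, fell in KO at day 7. Abca2 (ENSMUSG00000026944.18, chr2:25428703-25448540, plus strand) had 17, 15.4 and 17.8 CPM in KO against 30.1, 25 and 25.2 CPM in WT libraries, with a log2 fold change of -0.68 ± 0.15 (edgeR adjusted p = 0.00469). Abca3 (ENSMUSG00000024130.16, chr17:24351950-24410201, plus strand) had 56.8, 53.2 and 56.2 CPM in KO against 83.1, 74.8 and 84.9 CPM in WT libraries, with a log2 fold change of -0.55 ± 0.14 (edgeR adjusted p = 0.00864). The 3 KO libraries were the lowest of the 6 for both genes. At day 14 their values were -0.24 ± 0.15 and -0.31 ± 0.14, not called, and both calls of day 7 held without each library. Every KO day 14 library was below the WT library of its number for both genes.

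The other tested members of subfamily A were not called on any day. Abca1, the cholesterol and phospholipid exporter that forms HDL, had 119, 119 and 129.9 CPM in KO and 70.1, 101 and 69.6 CPM in WT at day 7. KO lay above WT, and the log2 values of 0.61 ± 0.27 at day 7 and 0.72 ± 0.27 at day 14 missed the threshold (edgeR adjusted p = 0.136 and 0.119). Abca1 was called at day 7 with only the groups compared, and at day 14 without WT day 14 replicate 3. Abca7, a related phospholipid exporter, had log2 values of 0.23 ± 0.17 and 0.21 ± 0.17. Abca12, a lipid transporter of the skin, had 1.55 ± 0.76 at day 7, and was called there with only the groups compared. Abca4, a retinoid transporter of the eye, and Abca5, Abca8b and Abca9, relatives with a part in lipid transport, had day 7 log2 values from 0.21 (Abca5) to 0.84 (Abca9).

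Of the cholesterol and phospholipid list, 1 of 5 tested members was higher in KO at day 7 and 0 were lower. Abcg1 (ENSMUSG00000024030.7, chr17:31057675-31117988, plus strand), which passes cholesterol to HDL, had 3.91, 3.19 and 4.5 CPM in KO and 2.3, 1.09 and 2.72 CPM in WT at day 7. All KO libraries were above all WT libraries, and WT day 7 replicate 2 was the lowest. The log2 fold change was 0.89 ± 0.25 at day 7 (edgeR adjusted p = 0.0185) and 0.65 ± 0.26 at day 14 (edgeR adjusted p = 0.132). The call was lost without WT day 7 replicate 2 (log2 0.62, edgeR adjusted p = 0.0759) and with only the groups compared (edgeR adjusted p = 0.0843, in a range from 0.00671).

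Abcg5 and Abcg8, whose proteins join to send sterols back into the lumen, share a start region on chromosome 17 in opposite directions. Abcg5 had 129, 115 and 112 CPM in KO and 142, 143 and 132 CPM in WT libraries of day 7 (log2 -0.23 ± 0.19). Abcg8 had 135, 105 and 109 CPM in KO and 122, 119 and 106 CPM in WT libraries of day 7 (log2 0.01 ± 0.23). For Abcg5 all 3 KO libraries were below all WT libraries at day 7, and for Abcg8 they overlapped. Neither was called on any day, and the day 14 values were -0.13 ± 0.19 and -0.09 ± 0.23. Of 12 genes of cholesterol handling, 1 rose at day 7, Scarb1 (the HDL receptor, log2 1.43 ± 0.38), and 1 fell, Soat1 (a cholesterol acyltransferase, log2 -0.63 ± 0.13). Soat1 alone of these was called at day 14, with a log2 fold change of -0.53 ± 0.13.

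Abcb6, Abcb8 and Abcb10, mitochondrial members that serve porphyrin, potassium and heme-related transport, gave 0 calls on any day by edgeR. At day 7 their log2 values were -0.03 ± 0.16, 0.33 ± 0.15 and -0.01 ± 0.15. Abcb8 had an unadjusted p of 0.0442 in edgeR at day 7 and 0.0477 at day 14, and it was called at day 7 only without KO day 7 replicate 3. DESeq2 called 0 of the 3 against WT on any day.

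In the list of peroxisomal and lysosomal members, 1 of 4 tested was lower at day 7 and 0 were higher. Abcb9 (ENSMUSG00000029408.13, chr5:124061530-124095798, minus strand), a lysosomal peptide transporter, had 11.9, 11.7 and 10.9 CPM in KO and 19.5, 16 and 16.4 CPM in WT at day 7. KO was below WT in every library, with a log2 fold change of -0.59 ± 0.16 (edgeR adjusted p = 0.014). The call was lost without WT day 7 replicate 1 (edgeR adjusted p = 0.078). Abcd3, which brings fatty acids into peroxisomes, had a log2 value of -0.27 ± 0.25 at day 7 and overlapping libraries, and Abcd4, a lysosomal cobalamin transporter, -0.05 ± 0.15. At day 14 Abcd3 had -0.33 ± 0.25, not called, with each KO library below the WT library of its number. Of 10 genes of peroxisomal oxidation, Pex19 (an import receptor, log2 0.64 ± 0.18) rose and Acaa1a (a thiolase, log2 -0.52 ± 0.17) fell at day 7, and 0 were called at day 14.

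The soluble members had 2 of 4 higher at day 7. Abcf1 (ENSMUSG00000038762.15, chr17:35956819-35969761, minus strand), which helps initiation of translation, had 118, 112 and 98 CPM in KO and 81.7, 84.9 and 80.2 CPM in WT at day 7. Abcf3 (ENSMUSG00000003234.16, chr16:20548577-20561379, plus strand), a relative of yeast Gcn20, had 57.4, 55.1 and 46.2 CPM in KO and 41.3, 35.9 and 42.8 CPM in WT. Both separated fully by genotype, with small log2 fold changes of 0.41 ± 0.13 and 0.40 ± 0.12 (edgeR adjusted p = 0.0331 and 0.022). Abcf2, a relative of Abcf1, had a log2 value of 0.19 ± 0.14, and Abce1, which splits ribosomes after termination, 0.35 ± 0.17 (edgeR adjusted p = 0.182), called only without KO day 7 replicate 3.

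The calls of Abcf1 and Abcf3 depended on single libraries. Abcf1 lost its call without KO day 7 replicate 1 (edgeR adjusted p = 0.109), KO day 7 replicate 2 (0.094), WT day 7 replicate 1 (0.0932), WT day 7 replicate 2 (0.0673) or WT day 7 replicate 3 (0.0969), and with no filter on low counts (0.102, in a range from 0.0127). Abcf3 lost its call without KO day 7 replicate 1 (edgeR adjusted p = 0.0851), KO day 7 replicate 2 (0.077), WT day 7 replicate 1 (0.0515) or WT day 7 replicate 2 (0.108), and with no filter on low counts or only the groups compared (0.0971 and 0.0673, in a range from 0.00736). At day 14, DESeq2 called Abcf3 higher, as did edgeR with a mean count of at least 50. Of 8 factors of ribosome recycling and release, 2 were higher in KO at day 7, Gspt1 (a release factor, log2 0.41 ± 0.12) and Hbs1l (a ribosome rescue factor, log2 0.31 ± 0.10), and 0 at day 14.

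The 12 members that were not tested were Abca6, Abca8a, Abca15, Abca16, Abca17, Abcb4, Abcb5, Abcb11, Abcc9, Abcc12, Abcd2 and Abcg4. Their mean level in WT ran from 0.000559 to 0.0337 RPKM. Abcb11 had counts of 7, 9 and 8 in the KO and 1, 3 and 1 in the WT libraries at day 14, 24 against 5 in all. That is a ratio of 5.81 at equal depth with a 95% interval of 2.17 to 19.5 (counting error only). With no filter on low counts, and without KO day 14 replicate 1, edgeR called Abcb11 higher, and only its KO libraries can carry it past the filter. Abcg3, a rodent relative of Abcg2 and the scarcest tested member of subfamily G, was not called on any day (log2 0.46 ± 0.46 at day 7).

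The 3 ABC genes with other symbols were all called at day 7. Cftr, the chloride channel of crypts and a relative of subfamily C, had 141, 159 and 186 CPM in KO and 306, 328 and 239 CPM in WT and fell, with a log2 fold change of -0.84 ± 0.16 (edgeR adjusted p = 0.00101). Tap1, which with Tap2 loads peptides for MHC class I, had 143, 91.5 and 81.4 CPM in KO and 49.9, 30.2 and 46.7 CPM in WT and rose, with a log2 fold change of 1.31 ± 0.27 (edgeR adjusted p = 0.00269). Tap2 had 95.2, 59.2 and 60.6 CPM in KO and 33.2, 20.7 and 26.5 CPM in WT and rose, with a log2 fold change of 1.41 ± 0.34 (edgeR adjusted p = 0.00957). In each case KO and WT libraries stood apart, and KO day 7 replicate 1 was the most extreme. At day 14 none of the 3 was called, with log2 values of -0.37 ± 0.16, 0.59 ± 0.27 and 0.79 ± 0.34. The KO effect on Tap1 differed between days 7 and 2 by 1.71 ± 0.38 (edgeR adjusted p = 0.0152).

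Calls among genes that work with the pumps stand beside 7.11% of all tested genes higher and 10.2% lower at day 7, and 3.23% and 4.69% at day 14. Of 11 nuclear receptors and transcription factors known to act on ABC genes, 2 were higher at day 7, Nfe2l2 (NRF2, log2 0.69 ± 0.17) and Nr1h4 (the bile acid receptor FXR, log2 0.63 ± 0.15), and 0 were called at day 14. Of 16 solute carriers that move drugs, bile acids and conjugates, Slc51b (a subunit of the basolateral bile acid transporter, log2 0.99 ± 0.23) was higher at day 7 and 0 were called at day 14. At day 2, 0 genes of these lists were called by edgeR. Slc47a1, a drug and proton exchanger, and Slc15a1, the peptide transporter, were lower in WT at day 14 than at day 2, with log2 fold changes of -1.39 ± 0.33 and -1.78 ± 0.41. Slc2a2 and Slc5a1, the glucose transporters, were lower as well (-1.74 ± 0.40 and -1.65 ± 0.29).

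Over time in WT mice, edgeR called 0 of 38 members between days 7 and 2, beside 0.553% of all tested genes, with 12 of 38 members, beside 4792 of 21349 genes, at an unadjusted p under 0.05. DESeq2 called 3, with Abcc8 and Abcc10 higher at day 7, for which the edgeR log2 values were 0.65 ± 0.18 and 0.70 ± 0.20. Between days 14 and 2, edgeR called 2 members lower, Abcb1a and Abcc2, beside 0.871% of all genes, and 0 higher, beside 0.735%. At an unadjusted p under 0.05 there were 9 of 38 members, beside 4271 of 21349 genes, and DESeq2 called 5, 1 of them higher (Abcc8) and 4 lower (Abca1, Abcb1a, Abcc2 and Abcd3). The day 14 count was 1 without WT day 2 replicate 1, WT day 2 replicate 3 or WT day 14 replicate 1, the libraries on which the call of Abcc2 rested. Both comparisons share the WT day 2 libraries.

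Markers of other cells moved with genotype, and their part in the results above was not tested. The 10 enterocyte markers summed to 21993, 15966 and 14119 CPM in KO and 11166, 12258 and 9097 CPM in WT at day 7, with Sis most abundant, 2 called higher (Fabp1 and Fabp2) and 1 lower (Lct). At day 14 they summed to 11247, 21454 and 15829 CPM in KO and 4592, 9933 and 12336 CPM in WT, and 1 was called higher (Sis). In WT alone, 3 enterocyte markers, Fabp2 and Slc5a1 among them, were called lower at day 14 than at day 2, where the sums were 21242, 13084 and 29230.0 CPM. Of the 10, 0 had a positive log2 value in WT against day 2, either at day 14 (median -1.27) or at day 7 (median -1.11, 0 called). All KO sums were above the WT sums at day 7, and 1 KO sum lay below the highest WT sum at day 14, where each KO sum was above the WT sum of its number.

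The 5 Paneth cell markers were all called lower in KO at day 7, with Lyz1 most abundant. They summed to 1384, 3893 and 3705 CPM in KO and 10934, 8767 and 14650.1 CPM in WT. At day 14 only Ang4 was called lower, but 0 of the 5 log2 values were positive (median -1.19). The day 14 sums were 6985, 7126 and 5389 CPM in KO and 19994, 11724.5 and 9033 CPM in WT, with no overlap. The 5 stem cell markers summed to 298, 764 and 779 CPM in KO and 1409, 1629.8 and 1230.4 CPM in WT at day 7, with Olfm4 most abundant. Of the 5, 3 were called lower at day 7 and 1 at day 14 (Smoc2). The day 14 sums were 1408, 1194 and 1186 CPM in KO and 1489, 1503 and 1690 CPM in WT, with no overlap. The Paneth and stem cell sums were both lowest in KO day 7 replicate 1, the library with the highest Abca14, Abcc2 and Tap1. Goblet cell markers had 2 of 6 called lower at day 7 (Fcgbp and Clca1) and 1 at day 14 (Clca1), while 4 of the 6 log2 values of day 7 were positive, with a median of 0.11. Their sums of 13263, 10002 and 10317 CPM in KO and 15561, 13145 and 15509.5 CPM in WT at day 7 follow Fcgbp, the most abundant, at a mean of 5095 CPM in KO and 8967 CPM in WT. Tuft cell markers had 1 of 4 tested lower at day 7 (Dclk1, also the most abundant). Their sums were 23, 48.1 and 52.4 CPM in KO and 65.7, 66.5 and 59 CPM in WT. Proliferation genes had 1 of 4 lower at day 14 (Top2a, with Mki67 most abundant). Their sums were 835, 698 and 768 CPM in KO and 1088, 1057 and 892 CPM in WT.

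Markers of cells from outside the epithelium had low sums, but these were not lowest on every day. Stromal and endothelial markers reached 181 CPM in WT day 14 replicate 3 and 148 CPM in KO day 14 replicate 3. Mast and red cell markers reached 84.9 CPM in KO day 14 replicate 3. The 8 immune markers summed to 38.9, 47.5 and 100.4 CPM in KO and 82.2, 39.1 and 38.5 CPM in WT at day 7 with 0 called (Ptprc most abundant), and the stromal and endothelial markers to 52.3, 28.9 and 77 and 21.4, 36.5 and 56.5 CPM with 1 of 8 tested higher (Col3a1 most abundant). Smooth muscle markers (0 of 4 tested), mast and red cell markers (0 of 2 tested) and glial and neuronal markers (1 higher and 1 lower of 3) summed to at most 29.8 CPM in any library of day 7. No list had a marker at 0 in all libraries of a group.

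Some counts cannot be assigned to 1 gene, since strand was not used in the counting and a read over 2 genes counted for both. Abcb6 shares 55.2% of its exon bases with Gm29253 on the same strand, Abcb10 shares 10.3% with Gm45890, Abcb1a 10.1% with Gm42686 and Abca3 9.75% with D330041H03Rik, all on the opposite strand. Abcb9 shares 2.89% with Gm34086, and Abcc10 0.744% with Dlk2. Abcg5 and Abcg8 share 82 exon bases. Abcb1a and Abcb1b transcripts were 88.8% identical with an identical run of 338 bases, longer than a read, and reads that map to both genes were not counted.

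Abcc6 and Abcc8 are neighbours on the minus strand of chromosome 7, 74.2 kb apart, and moved in opposite directions at day 7. Prmt1 lies 981 kb from Abcc6 and 1118 kb from Abcc8 on the same chromosome, and Abca14 lies 75217 kb from Prmt1.

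Upstream sequences are shown for Abca14, Abcc2, Abcc5 and Abcc10, called on both later days, so that the start regions of 3 genes that rose and 1 that fell can be set side by side. They are the 250 bases before the start in RefSeq (GRCm38.p6), 5′ to 3′ on the strand of the gene, with capitals for motif matches. The windows are chr7:120203714-120203963, plus strand (Abca14), chr19:43782058-43782307, plus strand (Abcc2), chr16:20426395-20426644, minus strand (Abcc5) and chr17:46328024-46328273, minus strand (Abcc10). Abcc8 has no entry. RefSeq and the count table place some starts differently, so that 3 bases of the Abca14 window, 116 of the Abcc2 window and all 250 of the Abcc10 window, 1 of 2 for that gene, lie inside the gene as counted, and 0 bases of the Abcc5 window do.
Abca14: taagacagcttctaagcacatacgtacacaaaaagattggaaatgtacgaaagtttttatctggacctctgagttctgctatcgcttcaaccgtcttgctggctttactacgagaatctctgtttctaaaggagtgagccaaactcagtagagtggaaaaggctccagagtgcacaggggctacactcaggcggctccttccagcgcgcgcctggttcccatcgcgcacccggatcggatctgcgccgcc
Abcc2: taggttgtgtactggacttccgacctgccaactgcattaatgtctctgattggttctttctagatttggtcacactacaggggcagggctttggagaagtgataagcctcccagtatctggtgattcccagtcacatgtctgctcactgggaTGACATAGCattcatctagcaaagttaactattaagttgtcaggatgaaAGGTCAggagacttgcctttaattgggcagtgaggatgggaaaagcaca
Abcc5: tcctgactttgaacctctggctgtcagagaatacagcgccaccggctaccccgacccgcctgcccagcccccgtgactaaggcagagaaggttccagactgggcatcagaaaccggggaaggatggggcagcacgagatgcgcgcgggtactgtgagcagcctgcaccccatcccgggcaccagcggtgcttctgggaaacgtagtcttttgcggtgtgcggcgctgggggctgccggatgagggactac
Abcc10: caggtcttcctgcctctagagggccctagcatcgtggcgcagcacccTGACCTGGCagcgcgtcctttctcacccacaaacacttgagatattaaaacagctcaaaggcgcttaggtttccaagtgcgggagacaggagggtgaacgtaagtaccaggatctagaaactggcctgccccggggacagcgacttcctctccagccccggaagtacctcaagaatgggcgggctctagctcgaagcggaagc

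The motifs searched on both strands were AGGTCA, a nuclear receptor half-site, TGACNNNGC, the core bound by NRF2, and GTTAAT, an HNF1 half-site. The Abcc2 window held TGACATAGC from position -98 to -90 and AGGTCA from -49 to -44, counted back from the start. The Abcc10 window held TGACCTGGC from -203 to -195, and its first 6 bases, TGACCT, are also the half-site read on the other strand, so that the 2 matches overlap. The Abca14 and Abcc5 windows held none of the 3. Of 32841 windows of all genes, 14.0% held AGGTCA, 10.2% held TGACNNNGC and 6.43% held GTTAAT. Of 45 windows for the 38 members with an entry, 7 held AGGTCA, 4 held TGACNNNGC and 0 held GTTAAT. These are not the 38 tested members, since Abcb11 (not tested) has an entry and Abcc8 (tested) has none. A match describes the sequence only.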

How the data were processed

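The authors aligned reads with STAR 2.7.3 to mm10 and deposited counts per gene, made with featureCounts 1.6.4 (unstranded, reads over several genes counted for each, multi-mapping reads left out). The header of the count table names GENCODE release 23, the methods name 26. All 18 count columns were used. The 20 genes left out (here called sex-linked) are ones the study found to differ between the sexes. The study used mice of both sexes, matched between KO and control. The labels do not give the sex of the mice, so sex was not in the model. Library totals had a median of 21266804.5 counts. From the counts, CPM with TMM factors and RPKM with the exon length column were computed. Genes that passed filterByExpr (21349) were tested in one model of 6 groups by the quasi-likelihood test of edgeR 4.0.16 (limma 3.58.1, R 4.3.3), Benjamini-Hochberg adjusted within each of 7 comparisons and called under 0.05. Counting intervals are exact conditional binomial, 95%.

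Members and lists were chosen with earlier results of these data known. Genes named are those called, the 3 most abundant of each subfamily by RPKM, Cftr, Tap1, Tap2, Prmt1, Kcnj11, Kcnj8 and called genes of the partner lists, with other members named to account for the rest. Results of a few single genes are not reported here. Alternatives were DESeq2 1.42.0, its size factors, a mean count of at least 50, no filter on low counts, only the groups compared, a replicate block, sex-linked genes kept, the 20 most abundant genes left out, and fits without each single library. The labels do not say what a replicate number marks. On day 14 all 3 KO and WT pairs of a number correlated over 0.1 in their deviations from the group means (0.227, 0.180 and 0.159). The numbers may therefore pair the samples of that day, a hint from the data and not from the labels. On days 2 and 7 not all pairs did. The block used 1 term per number over all days, so a pairing of day 14 alone was not fitted. For comparisons of KO and WT libraries of the same number, no share over all genes was computed. They describe the libraries only and add no support to effects that were not called. The pipeline was tested on simulated data. Sequences come from RefSeq windows and GENCODE release 21 transcripts, read with Biopython 1.88.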

Additional observations from a re-analysis of the deposited data

Results flagged for a closer look

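Abca14 had a KO effect that differed between days 7 and 2 by the interaction test, by 3.29 on the log2 scale (SE 0.51, edgeR adjusted p = 0.00105). Abcc10 had a KO effect that differed between the same days, by -2.46 (SE 0.29, edgeR adjusted p = 0.000105). For Abcc2 the KO effect of day 7 minus that of day 2 was 1.68 (SE 0.35, edgeR adjusted p = 0.00967). For Abcc6 that difference was -1.54 (SE 0.33, edgeR adjusted p = 0.0109). For Tap1 that difference was 1.71 (SE 0.38, edgeR adjusted p = 0.0152).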

How the results depend on the processing

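Of 27 called results of single members, 16 were called in every fit, 11 were lost in at least 1, 3 of these only when 1 library was left out, and 0 turned direction. Member counts were 0 at day 2 in every fit. At day 7 they were 13 to 16 in the other settings and 10 to 16 with 1 library left out (10 without WT day 7 replicate 1), against 16 here. At day 14 they were 4 to 6 in both, against 5. The difference between KO effects of days 7 and 2 gave 4 to 5 in the other settings and 4 to 6 with 1 library left out, against 4, and that of days 14 and 7 gave 0 throughout. Between WT days 7 and 2, against 0 here, DESeq2 gave 3, no filter on low counts 2, only the groups compared 1 and a mean count of at least 50 gave 1, with 0 when any 1 library was left out. Between WT days 14 and 2, against 2 here, DESeq2 gave 5, no filter 4, a mean count of at least 50 gave 3 and only the groups compared 1, with 1 to 3 when 1 library was left out. The cause was not tested. With the replicate block the counts were 0, 16 and 4 on days 2, 7 and 14, 4 and 0 for the differences between days and 0 and 2 in WT, and Abcc5 at day 14 was not called (edgeR adjusted p = 0.061), nor was Prmt1 at day 2 (0.0531), and the block changed no other call of a member. On days 2 and 7 samples share only a number (correlations of 0.0478, 0.158 and 0.381 and of -0.159, 0.206 and 0.0787), and not every sample correlated best with its own. Abca13 was not tested with a mean count of at least 50 or only the groups compared. Low counts limit the scarce members: 12 of 50 could not be tested.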
